A study of Homo sapiens with 16 samples.

Results

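DACH1, SALL1, POU3F3, NKX2-5 and BEND4 are 5 genes of developmental transcription factors or related nuclear proteins, of 20166 gene symbols measured. They were chosen by their high level in cells that over-express the T164A mutant of an introduced construct, so their level there is given as a description, with no test. RNA was sequenced from RWPE1 cells, an immortalised line of human prostate epithelium with basal features. The line was engineered in 3 ways, and the groups held 4 libraries of T164A mutant over-expression (replicates 91 to 94), 6 libraries of wild-type over-expression (replicates 13 to 18) and 6 libraries of the empty vector, an altered pTRIPZ (replicates 1 to 6). The labels name no clones, induction time or separate cultures, and all 3 groups are 1 cell line. The p-values therefore reflect how far the libraries of a group differ, and that difference may be technical.

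DACH1 is the human relative of fly dachshund, a cofactor that works with SIX-family, EYA and PAX proteins in the network first described in eye development. SALL1 is a zinc-finger repressor needed for kidney development, and it recruits a histone deacetylase complex named NuRD. POU3F3 (also called BRN1) is a POU-homeodomain factor of the developing brain and kidney, NKX2-5 is a homeodomain factor of the early heart, and BEND4 carries a BEN domain, which is found in several chromatin and DNA-binding proteins. Such genes are usually silent outside the lineages they serve.

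Values are the deposited log2 values, and group values are mean ± SD over libraries. A level of 2.30 is called the floor here. It is where 3 reads would lie, averaged over the libraries, if the spacing of values at high levels held at low ones. That spacing was extrapolated and not seen at low levels, so calling a gene below the floor not detected is a working rule. Depth was estimated from the values at 12300000 to 19200000 reads per library. Where a group lies below the floor, the fold against it is given as a lower bound computed against the floor, and it rests on that rule. RNA from bulk cultures cannot tell apart fewer cells that express a gene and less RNA per cell. T164A replicate 93 and wild-type replicate 14 differed more from the other libraries of their groups than those did from each other, so the values that rest on them are also given without them.

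DACH1 was high in all 4 T164A libraries and was not detected in any other library. Its T164A values were 9.74, 9.74, 9.75 and 9.62 in replicates 91, 92, 93 and 94. The 6 wild-type libraries had a lowest value of -0.75, a median of -0.09 and a highest of 1.47, and the 6 vector libraries had a lowest of -0.93, a median of -0.09 and a highest of 1.26. The 4 T164A values sat far above both other groups, with no overlap, and lay within 0.13 of each other. The T164A mean was 9.71 ± 0.06 (SD, n = 4), at least 170-fold above the floor, and it was 9.70 without replicate 93.

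SALL1 followed the same order. It had values of 9.57, 9.50, 9.45 and 9.54 in T164A replicates 91, 92, 93 and 94. The wild-type libraries ran from -1.66 through a median of 0.62 to 1.27, and the vector libraries from -0.30 through a median of 1.07 to 1.82, all below the floor. The T164A mean was 9.51 ± 0.05 (SD, n = 4), at least 148-fold above the floor, and it was 9.53 without replicate 93.

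POU3F3 had values of 9.09, 9.11, 9.25 and 9.12 in T164A replicates 91, 92, 93 and 94. Its wild-type values ran from -1.33 through a median of -0.38 to 1.62, and its vector values from -0.68 through a median of -0.17 to 0.79. The groups did not overlap, and replicate 93 stood highest among the T164A libraries. The T164A mean was 9.14 ± 0.07 (SD, n = 4), at least 115-fold above the floor, and it was 9.11 without replicate 93.

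NKX2-5 was the lowest of the 5 genes in T164A cells and varied most between those libraries, with values of 9.02, 8.86, 8.75 and 9.11 in replicates 91, 92, 93 and 94. Its wild-type values ran from -1.74 through a median of 0.41 to 1.31, and its vector values from -1.995 through a median of -1.01 to 1.57. No wild-type or vector library reached the floor. The T164A mean was 8.93 ± 0.16 (SD, n = 4), at least 99.3-fold above the floor, and it was 8.996 without replicate 93.

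BEND4 differed from the other 4 genes, because it was also expressed in wild-type cells. It had values of 9.70, 9.62, 9.78 and 9.46 in T164A replicates 91, 92, 93 and 94. The wild-type libraries had a lowest value of 7.73, in replicate 14, a median of 8.35 and a highest of 8.78, in replicate 18. The vector libraries ran from -1.804 through a median of -0.01 to 1.17, all below the floor. All 4 T164A libraries stood above all 6 wild-type libraries, which in turn stood above all 6 vector libraries. The T164A mean was 9.64 ± 0.14 (SD, n = 4) and the wild-type mean 8.31 ± 0.34 (SD, n = 6), a difference of 1.33 on the log2 scale (SE 0.37 from the limma fit), or 2.52-fold. Without wild-type replicate 14 the wild-type mean was 8.42 ± 0.21 (SD, n = 5), and without T164A replicate 93 the T164A mean was 9.59 ± 0.12 (SD, n = 3). In these libraries DACH1, SALL1, POU3F3 and NKX2-5 were thus detected with the T164A construct alone, as they were chosen to be, while BEND4 was detected with either construct.

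**Figure D1:**
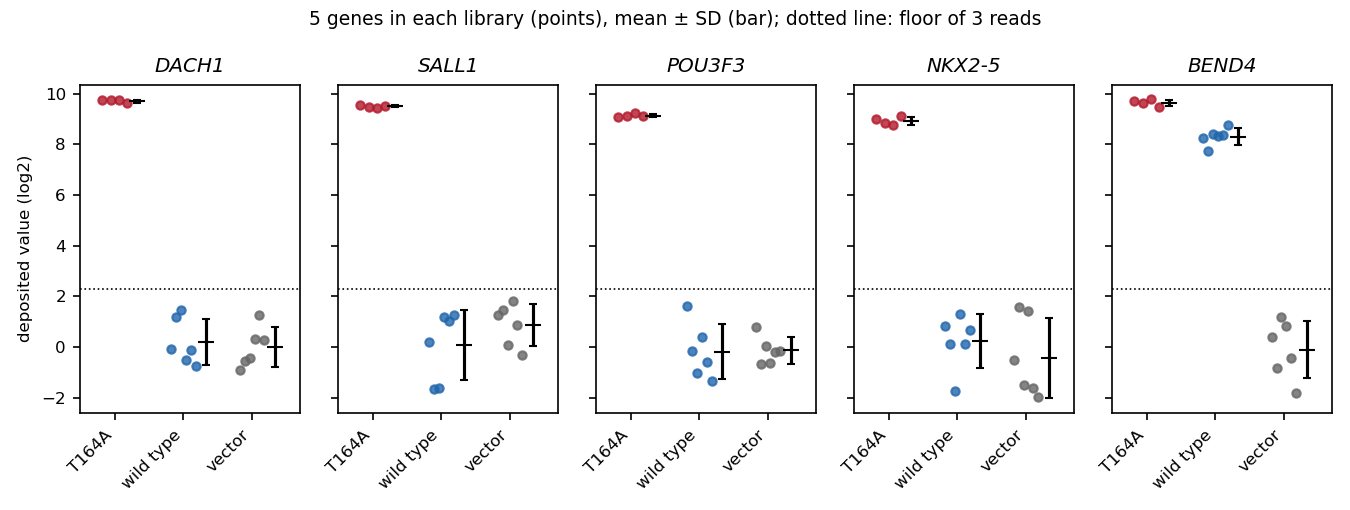
Deposited log2 values (vertical axis) of the 5 genes in each library of the T164A, wild-type and vector groups. Points are libraries, bars are mean ± SD and the dotted line is the floor of 3 reads. DACH1, SALL1, POU3F3 and NKX2-5 are above the floor in T164A libraries only, whereas BEND4 averages 9.64 in T164A and 8.31 in wild-type libraries.

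Wild type and vector were compared with limma over all 20166 symbols. The choice of the genes asked for levels far below T164A in the other libraries, so low vector values were part of it and this comparison is not fully independent of it. BEND4 was higher in 6 of 6 wild-type libraries than in every vector library (limma adjusted p = 1.07e-16), by at least 64.3-fold against the floor. The adjusted p was 3.67e-14 when libraries of a group that lie close together were averaged first. The other 4 genes were below the floor in both groups, so nothing is read from their difference or test. Of all symbols, 21.0% were called higher and 24.5% lower in this comparison, and nothing is read from the count among the 5 genes.

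With values below the floor set to the floor, the root mean square difference over the 16 libraries was 0.11 between DACH1 and SALL1 and 0.14 between POU3F3 and NKX2-5, and the widest pair among the 4 was DACH1 and NKX2-5 at 0.40. BEND4 lay 3.70 to 3.72 from each of them. Read numbers were extrapolated from high levels and are approximate. T164A libraries held 702 to 902 for DACH1, 573 to 799 for SALL1, 498 to 575 for POU3F3, 352 to 566 for NKX2-5 and 718 to 876 for BEND4. Wild-type libraries held 275 to 380 for BEND4.

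Longer genes collect more reads, so levels between genes were compared per kilobase of merged exons (GENCODE 29 lengths, from a later build than the deposited table). On that log2 scale the T164A level was 7.93 ± 0.16 for NKX2-5, 7.52 ± 0.07 for POU3F3, 7.28 ± 0.06 for DACH1, 7.09 ± 0.05 for SALL1 and 6.50 ± 0.14 for BEND4 (SD, n = 4 each). NKX2-5, the lowest per gene, was thus the highest per length. Each neighbouring pair in this order differed by more than the SDs of its genes. The order was the same with the longest annotated transcript of each gene, but not with the shortest, where SALL1 came first at 10.3, and which transcripts were made was not measured.

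The table has 5979 genes whose vector mean was below the floor, and 1168 of these (19.5%) had a T164A mean above it, while 616 (10.3%) had a wild-type mean above it. A T164A mean at or above 8.93, the lowest of the 5 genes, was reached by 44 of them. Of these, 21 were below the floor in wild-type cells, DACH1, SALL1, POU3F3 and NKX2-5 among them, and 23 were above it, with BEND4 among them. In wild-type cells, 35 genes from below the floor reached the level of BEND4 or more.

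RefSeq promoter sequences (GRCh38.p14) were at hand for 3 of the 5 genes, 2 that were on in T164A cells only and BEND4, which was on with both constructs. The 250 bases before each gene's start are shown because all 3 genes were on in T164A cells and only BEND4 was on in wild-type cells. Capitals mark matches, on either strand, to 5 motifs. They are CCAAT, then the core of sites bound by NKX2-5 and its relatives, AAGTG, then the octamer bound by POU factors, ATGCAAAT, then the GC box, which reads GGGCGG, and last the TATA box, searched as TATAAA. The DACH1 sequence is chr13:71867205-71867454 on the minus strand, the POU3F3 sequence chr2:104853865-104854114 on the plus strand and the BEND4 sequence chr4:42152656-42152905 on the minus strand.
DACH1: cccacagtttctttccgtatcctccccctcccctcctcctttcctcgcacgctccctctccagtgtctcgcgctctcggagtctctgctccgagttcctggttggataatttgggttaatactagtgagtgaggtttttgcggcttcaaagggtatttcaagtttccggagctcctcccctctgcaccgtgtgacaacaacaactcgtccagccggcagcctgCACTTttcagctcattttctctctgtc
POU3F3: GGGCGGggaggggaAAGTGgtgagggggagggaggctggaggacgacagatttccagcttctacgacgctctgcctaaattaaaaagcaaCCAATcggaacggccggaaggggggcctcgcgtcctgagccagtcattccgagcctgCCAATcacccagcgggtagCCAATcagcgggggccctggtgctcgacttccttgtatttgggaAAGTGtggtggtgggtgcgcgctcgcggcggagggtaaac
BEND4: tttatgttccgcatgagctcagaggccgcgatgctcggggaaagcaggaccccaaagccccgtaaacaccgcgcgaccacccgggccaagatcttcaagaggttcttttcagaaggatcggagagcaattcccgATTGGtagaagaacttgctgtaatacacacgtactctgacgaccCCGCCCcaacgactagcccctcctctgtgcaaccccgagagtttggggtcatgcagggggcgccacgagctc
AAGTG was found 1 time before DACH1, 2 times before POU3F3 and 0 times before BEND4, and 37.6% of all 35116 promoters of this length hold it. CCAAT was found 3 times before POU3F3, 1 time before BEND4 and 0 times before DACH1, against 32% of all promoters. GGGCGG was found 1 time each before POU3F3 and BEND4, against 42.6%. No match to the octamer (1.63% of promoters) or to TATAAA (10.7%) lies in the 3 windows, and no match shown overlaps another. The windows hold 12, 18 and 18 CpG dinucleotides for DACH1, POU3F3 and BEND4, against a median of 11, and a GC content of 54%, 62% and 58%, against a median of 58%. A match is a run of letters and not a measured site.

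Paralogues of the 5 genes were mostly higher in T164A cells too. Of 17 measured paralogues, 13 were higher and 0 lower than in vector cells, with a median difference of 3.70, against 37.1% of all symbols called higher, 27.2% called lower and a median of 0.11. Against wild-type cells 15 were higher and 0 lower, where 35.1% of all symbols were called higher and 26.7% lower. Between wild type and vector, 2 were higher and 2 lower, against 21.0% and 24.5% of all symbols. A total of 8 paralogues passed from below the floor in vector cells to above it in T164A cells.

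All 5 measured NKX2 genes were among them. NKX2-1, a factor of the lung, thyroid and forebrain, had 6.44 ± 0.11 in T164A, 0.60 ± 0.76 in wild-type and -0.23 ± 0.90 in vector libraries (SD), so T164A lay at least 4.14 above the floor on the log2 scale (limma adjusted p = 6.44e-12). NKX2-4 reached 6.12 ± 0.13 in T164A libraries. NKX2-8, NKX2-3 and NKX2-2, a factor of the pancreas and ventral neural tube, were lower, with T164A means of 4.94, 4.71 and 4.57. All of these were below the floor in both wild-type and vector libraries.

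POU3F2 (BRN2), a neural factor that is the close relative of POU3F3, reached almost the same level as POU3F3, with 9.16 ± 0.13 in T164A, 0.79 ± 0.78 in wild-type and 0.88 ± 0.85 in vector libraries (SD). That is at least 6.86 above the floor on the log2 scale (limma adjusted p = 8.12e-15). The other POU3F genes did not pass the test. POU3F4 was below the floor in every group, and POU3F1 averaged 5.13 in T164A and 5.19 in vector libraries. Among the SALL genes, SALL2 had 10.20 ± 0.11 in T164A, 7.78 ± 0.17 in wild-type and 6.86 ± 0.27 in vector libraries, a rise of 3.34 over vector (SE 0.12, limma adjusted p = 2.14e-18). SALL3 had 6.47 ± 0.20 in T164A, 1.89 ± 0.55 in wild-type and 2.77 ± 0.95 in vector libraries, a rise of 3.70 over vector (SE 0.42, limma adjusted p = 1.42e-08). SALL4, a pluripotency factor, differed by only 0.56 from vector (SE 0.17, limma adjusted p = 0.00619), and this call was lost under quantile normalization, where the difference was -0.01, and when close libraries were averaged (adjusted p = 0.200) or a minimum fold of 1.2 was asked for (adjusted p = 0.0914).

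DACH2, the second dachshund relative, had 6.25 ± 0.17 in T164A libraries, at least 3.95 above the floor on the log2 scale (limma adjusted p = 3.76e-08), and was below the floor at 1.36 in wild-type and 0.83 in vector libraries. The BEN-domain genes were less uniform. BEND5 went above the floor in T164A cells, at 4.50 ± 0.42, while BEND7 rose by 1.41 (SE 0.09) and BEND3 by 0.76 (SE 0.10) from levels that were already detectable. BEND6, at 4.89 in T164A and 4.36 in vector libraries, and BEND2, below the floor in every group, did not pass the test.

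SIX-family, EYA and PAX genes, the partners of dachshund proteins, also changed. Of 16 measured genes, 14 were higher and 2 lower in T164A than in vector cells, against 37.1% and 27.2% of all symbols, with a median difference of 3.62. The 14 include SIX6, which was below the floor in both groups. Between wild type and vector, 2 were higher and 3 lower (21.0% and 24.5% of all symbols). SIX2, which keeps kidney progenitors undifferentiated, had 8.50 ± 0.15, 3.12 ± 0.40 and 3.92 ± 0.42 in T164A, wild-type and vector libraries, a rise of 4.58 over vector (SE 0.25, limma adjusted p = 9.66e-15). PAX6, a regulator of the eye and forebrain, had 9.11 ± 0.04, 4.68 ± 0.39 and 4.805 ± 0.29 in the same groups, a rise of 4.31 (SE 0.19), and SIX4 rose by 1.23 (SE 0.08). Outside the naming rule, and chosen after its values were seen, the SIX-family cofactor EYA4 had 9.55 ± 0.07 in T164A, 1.09 ± 1.47 in wild-type and 2.57 ± 0.44 in vector libraries. The 2 that fell were PAX9, by 0.38 on the log2 scale, and PAX8, which was at 0.24 in T164A and 2.62 in vector libraries. The vector mean of PAX8 lay close to the floor, and against the floor its fall is at least 0.31. PAX1 was at 3.68 in T164A, 4.07 in wild-type and -0.64 in vector libraries, and so was above the floor with both constructs, as BEND4 was.

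**Figure D2:**
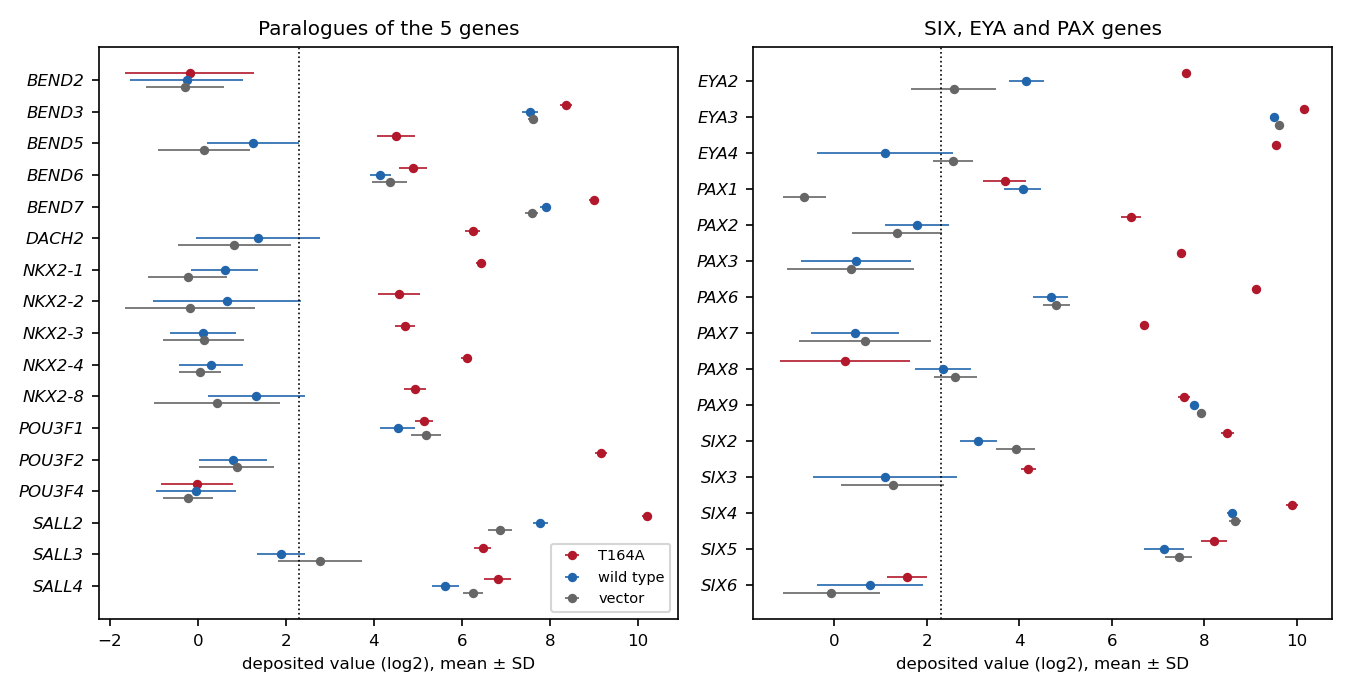
Mean ± SD of deposited log2 values (horizontal axis) in T164A (upper mark of each gene), wild-type and vector libraries (lower mark) for the 17 paralogues and 15 of the 16 SIX-family, EYA and PAX genes. The dotted line is the floor of 3 reads. T164A means lie furthest right for most genes, such as POU3F2 at 9.16 and EYA4 at 9.55, while PAX8 and PAX9 are lower in T164A. The vector mean of PAX8 is itself close to the floor.

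The corepressors through which DACH1 and SALL1 are known to act were expressed in all 3 groups, with all 19 measured genes above the floor in each. Of these, 14 were higher and 2 lower in T164A than in vector cells (37.1% and 27.2% of all symbols). The changes were small, with a median difference of 0.43. By at least 2-fold 2 were higher and 1 lower, and the share of all symbols at that fold was not computed. RBBP4, a histone-binding subunit of NuRD, had 11.41 ± 0.03 in T164A, 10.11 ± 0.05 in wild-type and 10.07 ± 0.04 in vector libraries, a rise of 1.34 over vector (SE 0.05, limma adjusted p = 5.81e-18). The deacetylase HDAC2 rose by 1.09 (SE 0.05) and RBBP7 by 0.96 (SE 0.05). SKIL, a relative of SKI that shares a domain with DACH1, fell by 1.63 on the log2 scale (SE 0.09, limma adjusted p = 2.42e-14), with 9.97 ± 0.29 in T164A and 11.60 ± 0.10 in vector libraries. Between wild type and vector, 4 of the 19 were higher and 9 lower (21.0% and 24.5% of all symbols).

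Heart genes that work with NKX2-5 or lie downstream of it were split. Of 20 measured genes, 9 were higher and 2 lower in T164A than in vector cells, with a median difference of 0.77. Of all symbols 37.1% were higher and 27.2% lower, so the count of higher heart genes lay near the background. Among the 11 that encode regulators, 8 were higher and 1 lower. The 2 not called, TBX5 and MYOCD, were below the floor in all 3 groups. HAND1, a factor of the early heart and placenta, had 8.33 ± 0.16 in T164A, -0.09 ± 0.89 in wild-type and 0.20 ± 1.24 in vector libraries, which puts T164A at least 6.03 above the floor on the log2 scale (limma adjusted p = 1.29e-12). MEF2C, a factor of muscle and neural genes, had 7.87 ± 0.13, 0.25 ± 0.93 and 1.86 ± 0.50 in T164A, wild-type and vector libraries, at least 5.57 above the floor. GATA6, a zinc-finger factor of heart and gut, rose by 2.72 (SE 0.12), with 9.14 ± 0.06 in T164A and 6.42 ± 0.24 in vector libraries. Among the other 9, which encode contractile proteins, hormones and a gap-junction channel, 7 were below the floor in T164A cells. In vector cells 7 of the 9 were below it as well, not all the same genes. TNNT2, the cardiac troponin T gene, fell by 5.95 on the log2 scale (SE 0.17, limma adjusted p = 2.40e-20), with 4.004 ± 0.57 in T164A, 9.32 ± 0.12 in wild-type and 9.96 ± 0.27 in vector libraries. MYH6, MYL2, MYL7, ACTC1 and NPPB were below the floor in all 3 groups. The division into regulators and others was made after the values were seen.

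Homeobox genes outside the HOX clusters, the wider class to which POU3F3 and NKX2-5 belong, were measured for 135 symbols without those genes. In T164A cells 83 were higher and 14 lower than in vector cells (37.1% and 27.2% of all symbols), with a median difference of 1.23. With a fold of at least 2 the counts were 70 and 7, and the share of all symbols at that fold was not computed. In wild-type cells 18 were higher and 39 lower than in vector cells (21.0% and 24.5% of all symbols), with a median difference of -0.19. These counts include 3 genes in the first comparison and 4 in the second that were below the floor in both groups compared. The number above the floor was 105 in T164A, 78 in wild-type and 68 in vector cells. Of the 67 homeobox genes below the floor in vector cells, 38 (56.7%) were above it in T164A cells, against 19.5% of all genes below it, and 28 of those 38 were below it in wild-type cells. In all, 3 of the 38 reached the level of the lowest of the 5 genes, namely POU3F2, ALX4 and SATB1, the last of these chosen after its values were seen.

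ALX4, a factor of skull and limb development, had 8.96 ± 0.11 in T164A, 5.24 ± 0.34 in wild-type and 2.29 ± 0.48 in vector libraries, and both constructs therefore lay above the vector level (limma adjusted p = 2.25e-18 for T164A and 1.70e-11 for wild type). SATB1, a chromatin organiser, had 9.35 ± 0.04 in T164A, 0.40 ± 1.34 in wild-type and 1.82 ± 1.03 in vector libraries. POU4F1 (BRN3A), a sensory neuron factor, rose by 4.11 over vector (SE 0.12), with 10.41 ± 0.09 in T164A and 6.30 ± 0.23 in vector libraries, and TGIF2 rose by 3.23 (SE 0.13). BARX2 fell by 1.98 on the log2 scale (SE 0.08, limma adjusted p = 9.27e-18), with 8.52 ± 0.12 in T164A and 10.4997 ± 0.09 in vector libraries.

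**Figure D3:**
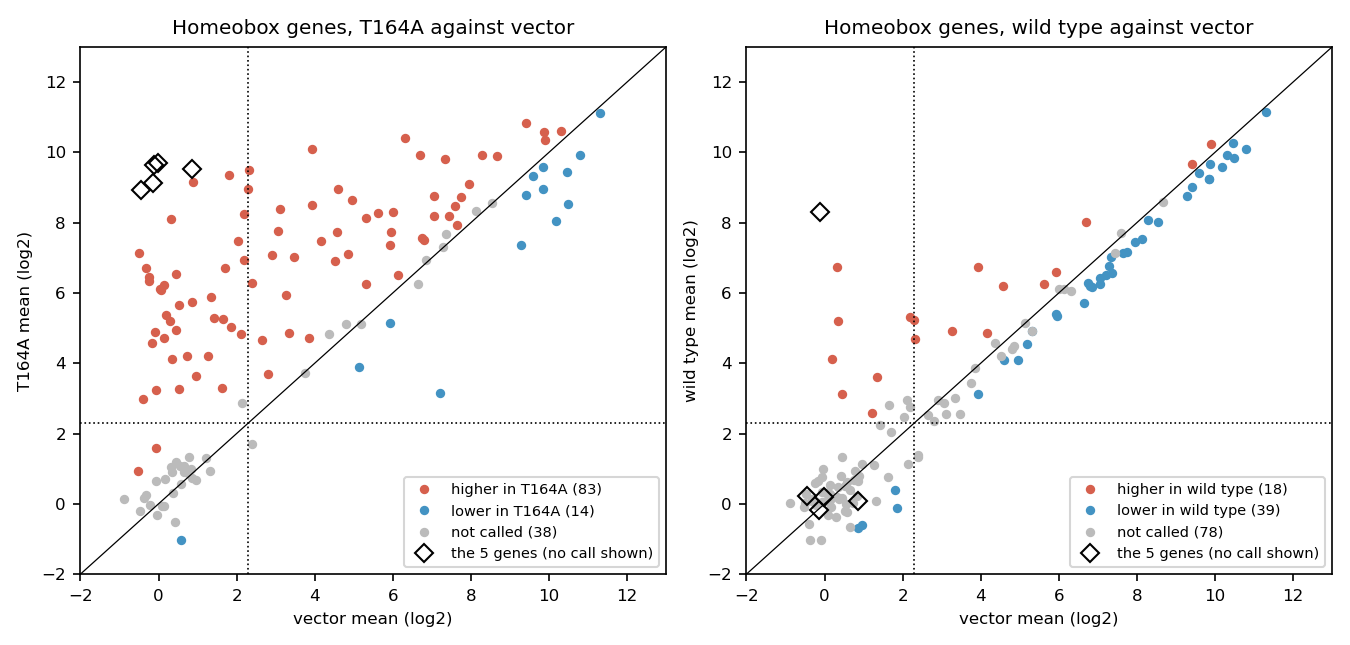
Group means (log2) of 135 homeobox genes, with T164A against vector on the left and wild type against vector on the right. Colours give the limma call, diamonds are DACH1, SALL1, POU3F3, NKX2-5 and BEND4, the diagonal marks equal levels and dotted lines mark the floor. In the T164A panel 83 genes are called higher and 14 lower, and in the wild-type panel 18 and 39.

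Markers of the line itself and of the cell types where the 5 genes normally act were measured beside them. All 14 markers of basal prostate epithelium were above the floor in every group, which alone does not identify a cell type. They were mostly lower in T164A cells, with 11 lower and 1 higher than in vector cells (27.2% and 37.1% of all symbols). All 14 were lower in wild-type than in vector cells, against 24.5% of all symbols. Their summed level was 16.97 to 17.19 in T164A, 17.56 to 18.01 in wild-type and 18.31 to 18.57 in vector libraries. The basal keratin KRT5 had 15.46 ± 0.14, 16.52 ± 0.17 and 17.05 ± 0.14 in T164A, wild-type and vector libraries, and TP63, the master factor of basal cells, had 11.16 ± 0.26, 11.82 ± 0.19 and 12.45 ± 0.07. In T164A minus vector, DSG3 differed by -4.18, KRT6A by -4.20, SFN by -2.73 and TRIM29 by -2.78 on the log2 scale, and all 4 passed the test. Outside the naming rule, ITGB4 was the 1 called higher, by 0.69. The basal keratin KRT14 (-0.21) and COL17A1 (0.09) did not pass the test. Against wild-type cells ITGB4, KRT14 and COL17A1 were called higher in T164A cells and 10 of the 14 lower.

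Most kidney progenitor markers were higher in T164A cells. Of 17 markers, 12 were higher and 2 lower in T164A than in vector cells (37.1% and 27.2% of all symbols), and 0 higher and 3 lower in wild-type than in vector cells (21.0% and 24.5%). Their summed level was 12.19 to 12.25 in T164A, 9.78 to 10.3 in wild-type and 10.4 to 10.7 in vector libraries. CITED1, which marks the kidney progenitor pool, had 9.999 ± 0.18 in T164A, 2.37 ± 0.82 in wild-type and 1.70 ± 0.51 in vector libraries, at least 7.70 above the floor on the log2 scale. FOXC1 rose by 1.44 (SE 0.09), and EMX2 reached 6.33 ± 0.23 in T164A from below the floor in the other groups. WNT4, which starts nephron formation, and PAX8 were the 2 that fell, PAX8 from a vector mean of 2.62, close to the floor. CDH6 was below the floor in every group.

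Neural progenitor markers were higher for 13 and lower for 1 of 16 in T164A against vector cells (37.1% and 27.2% of all symbols). They were higher for 7 and lower for 3 in wild-type against vector cells (21.0% and 24.5%). Their summed level was 11.48 to 11.67 in T164A, 9.30 to 9.39 in wild-type and 8.90 to 9.21 in vector libraries. ZIC2 had 9.46 ± 0.11, 6.43 ± 0.43 and 1.41 ± 1.52 in T164A, wild-type and vector libraries, and MSI1, an RNA-binding protein of neural stem cells, had 8.81 ± 0.11, 5.45 ± 0.38 and 0.62 ± 0.59. SOX1, which marks neural progenitors, was below the floor in every group.

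Of 14 neuronal markers, 10 were higher and 1 lower in T164A than in vector cells (37.1% and 27.2% of all symbols). The 10 include ELAVL4, which was below the floor in both groups. Their summed level was 12.1 to 12.3 in T164A, 9.50 to 9.66 in wild-type and 9.46 to 9.86 in vector libraries for all 14 markers. The sum is of linear values, and its largest parts in T164A were UCHL1 (11.13) and DPYSL3 (10.57). UCHL1 rose by 5.01 (SE 0.16), DPYSL3 by 4.47 (SE 0.11) and the synaptic vesicle gene SYP by 2.99 (SE 0.20), whereas MAP2 fell by 3.11 on the log2 scale. TUBB3 averaged 4.52 in T164A and 4.12 in vector libraries and did not pass the test, and DCX was at 2.39 in T164A, close to the floor. Of 13 mesenchymal markers, 8 were higher and 3 lower in the same comparison, against the same shares. Their summed level was 14.2 to 14.3 in T164A, 12.3 to 12.6 in wild-type and 12.3 to 12.7 in vector libraries. The largest parts of this sum in T164A were FN1 (13.51) and VIM (12.33). VIM rose by 4.79 (SE 0.13), CDH2 by 5.42 (SE 0.20), ZEB1 by 4.35 (SE 0.20) and FN1 by 1.84 (SE 0.12), all in T164A against vector cells. Fibroblast matrix genes, named outside the rule, went both ways. COL3A1 had 6.75 ± 0.16 in T164A, 1.53 ± 0.98 in wild-type and 0.62 ± 0.65 in vector libraries, and LUM had 4.83 ± 0.30, 0.23 ± 1.33 and -0.64 ± 0.86 in the same groups. COL1A1 fell by 1.62 on the log2 scale, to 9.24 ± 0.22 in T164A, against 10.85 ± 0.21 in vector libraries. DCN and COL1A2 were below the floor in every group, although COL1A2 is among the 3 called lower.

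Of 10 pluripotency markers, 4 were higher and 1 lower in T164A than in vector cells, near the 37.1% and 27.2% of all symbols, with a median difference of -0.03. Under quantile normalization 3 were higher and 3 lower. NANOG, LIN28A, DPPA4 and TDGF1 were below the floor in every group. Their summed level was 10.95 to 11.08 in T164A, 8.10 to 8.42 in wild-type and 7.89 to 8.29 in vector libraries. Most of the T164A sum (69.1% to 76.1%) was LIN28B, and without it the sums were 9.02 to 9.29, 8.09 to 8.40 and 7.86 to 8.27 in the same groups. LIN28B, a fetal RNA-binding protein, had 10.53 ± 0.11 in T164A, 0.59 ± 1.803 in wild-type and 1.34 ± 0.73 in vector libraries. TERT rose by 2.16 (SE 0.17) and SOX2 by 2.13 (SE 0.19), whereas POU5F1, the row kept of several for that symbol, fell by 1.24 on the log2 scale, a call that was lost with the mean of its rows (-0.16). Of 6 adrenal cortex markers, 1 was higher and 0 lower, against the same shares, namely the factor NR5A1. It was at 2.49 in T164A libraries, close to the floor, and at 0.72 in vector libraries. The 6 markers had summed levels of 5.37 to 6.03 in T164A, 4.92 to 5.73 in wild-type and 5.17 to 5.92 in vector libraries. The heart list above had summed levels of 11.6 to 11.8, 10.9 to 11.2 and 11.4 to 11.6 in the same order. The part of any of these marker changes in the levels of DACH1, SALL1, POU3F3, NKX2-5 and BEND4 was not tested.

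**Figure D4:**
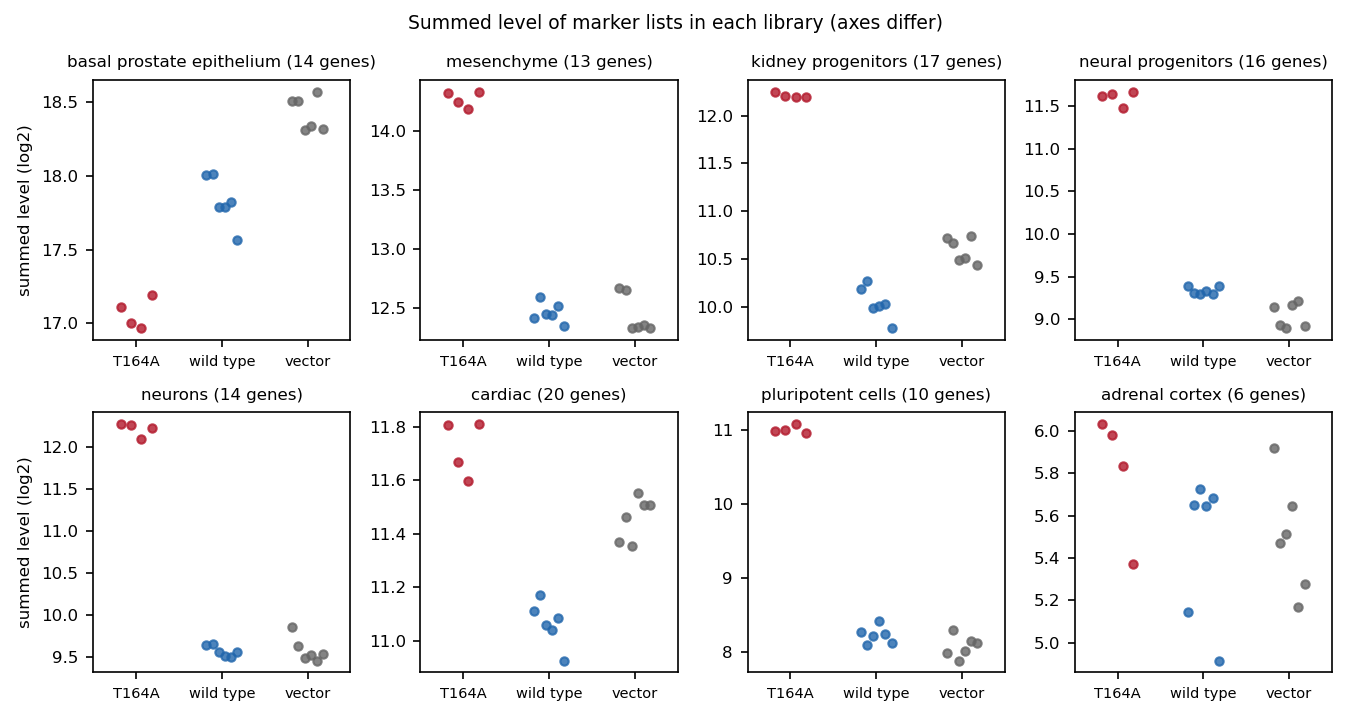
Summed level (log2 of the sum of the linear values) of 8 marker lists in each library of the T164A, wild-type and vector groups, with a different axis range in each panel. Kidney, neural, neuronal, mesenchymal and pluripotency sums are highest in T164A libraries, the basal sum is lowest there at 16.97 to 17.19, and the adrenal sums of the 3 groups overlap. The pluripotency sum in T164A is mostly LIN28B, the largest parts of the neuronal sum are UCHL1 and DPYSL3, and those of the mesenchymal sum are FN1 and VIM.

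The genes beside the 5 on their chromosomes did not all share their pattern. The 2 nearest measured protein-coding genes on each side were taken by position in RefSeq, outside the naming rule, and their order alone was used. Of these 20 neighbours, 11 were higher, 4 lower and 5 not called in T164A against vector cells, against 37.1% of all symbols higher and 27.2% lower, and 4 passed from below the floor to above it. One of the 4, GPR45 beside POU3F3, did not pass the test, at 2.87 in T164A and 1.95 in vector libraries (limma adjusted p = 0.0512). The neighbours of NKX2-5 differed by -0.79 (ATP6V0E1) to 0.64 (BNIP1) in T164A minus vector. Next to NKX2-5, the hormone gene STC2 had 12.41 ± 0.03 in T164A, 12.27 ± 0.07 in wild-type and 12.41 ± 0.04 in vector libraries, and MRPS9, a mitochondrial ribosome gene next to POU3F3, rose by 0.53 in T164A against vector cells.

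Beside BEND4, SLC30A9, a zinc transporter gene, was higher with both constructs, at 10.96 ± 0.17 in T164A, 10.91 ± 0.17 in wild-type and 9.87 ± 0.09 in vector libraries (limma adjusted p = 6.68e-12 and 1.02e-11 against vector). ATP8A1 was also higher with both, at 9.86 ± 0.15, 7.51 ± 0.23 and 5.47 ± 0.26 in the same groups, while SHISA3 was above the floor only in T164A libraries, at 6.14 ± 0.19. Beside SALL1, TOX3 had 6.69 ± 0.15 in T164A, 4.61 ± 0.52 in wild-type and -0.46 ± 0.78 in vector libraries, so it was on with both constructs although SALL1 was on with 1. NOD2 and CHD9, also beside SALL1, differed by -2.86 and -1.46 on the log2 scale in T164A minus vector, and both passed the test.

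The neighbours of DACH1 and POU3F3 also included genes that were highest in wild-type cells. KLHL1, next to DACH1, was on in wild-type cells alone, with 0.49 ± 1.09 in T164A, 6.44 ± 0.35 in wild-type and -0.08 ± 1.29 in vector libraries (limma adjusted p = 6.05e-11 for wild type against vector). PCDH9, a protocadherin gene beyond KLHL1 on the same side, had 9.50 ± 0.07, 3.93 ± 0.24 and 4.13 ± 1.22 in T164A, wild-type and vector libraries. SLC9A2, a sodium-proton exchanger gene near POU3F3, had 5.10 ± 0.20 in T164A, 8.85 ± 0.32 in wild-type and 1.56 ± 1.31 in vector libraries, and so was higher in wild-type than in T164A cells. RefSeq also places the noncoding transcripts LINC01159 and DALIR over POU3F3 and pseudogenes within DACH1. No source used here says whether the authors' counting used strand, so reads of overlapping transcripts cannot be told apart.

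**Figure D5:**
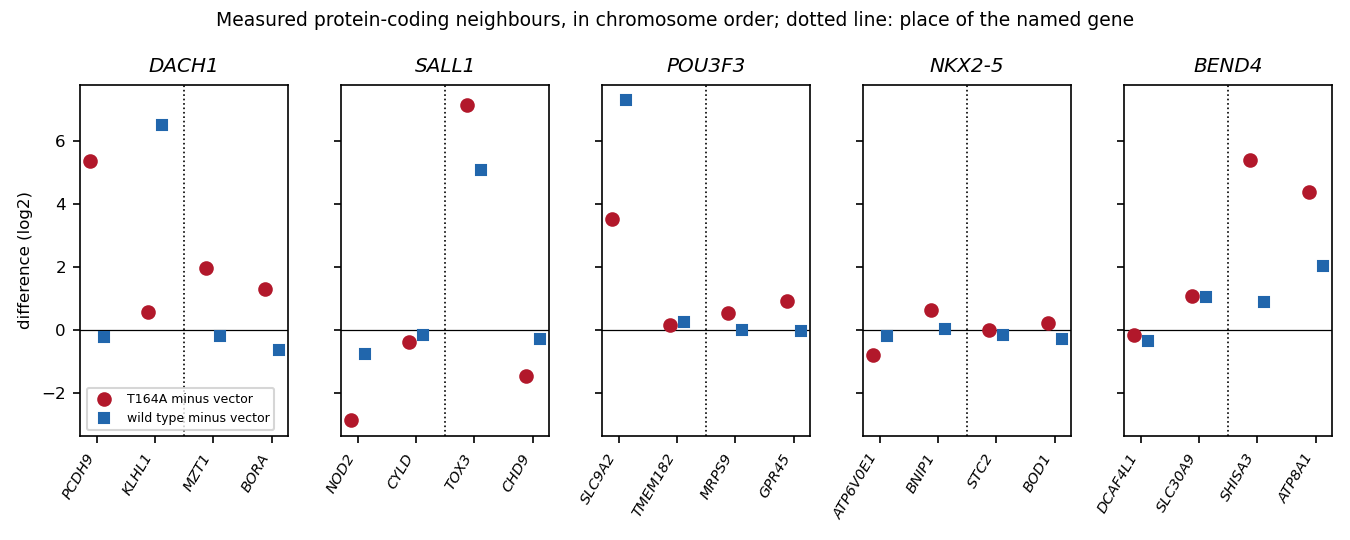
Differences in log2 value (vertical axis) for the 20 neighbouring genes in chromosome order, as T164A minus vector (circles) and wild type minus vector (squares). The dotted line is the place of the gene that heads each panel. TOX3 is up in both, KLHL1 only in wild type, and the neighbours of NKX2-5 lie between -0.79 and 0.64 for T164A minus vector.

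The genes whose values over the 16 libraries lay nearest to each of the 5 were found by the root mean square difference of floored log2 values, among 14299 candidates. For DACH1 these were LRCH2 at 0.06, AFF2, a nuclear protein gene tied to X-linked intellectual disability, at 0.10, and NR2F1, a nuclear receptor of the developing brain, at 0.16. The same 3 genes were nearest to SALL1, with AFF2 closest at 0.05. POU3F3 was nearest to SLC35F1 at 0.04, to its paralogue POU3F2 at 0.05 and to TUBB2B, a neuronal tubulin gene, at 0.06. NKX2-5 was nearest to ZCCHC12 at 0.05, ZDHHC22 at 0.11 and LINGO1, a neuronal membrane protein gene, at 0.12. All of these had wild-type and vector means below the floor.

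The genes nearest to BEND4 were, like it, above the floor with both constructs. LONRF2 lay at 0.23, with 9.20 ± 0.08 in T164A, 8.27 ± 0.35 in wild-type and 1.32 ± 1.35 in vector libraries. PDE10A, a phosphodiesterase gene, lay at 0.47, with 8.82 ± 0.01, 8.66 ± 0.36 and 0.50 ± 1.10 in the same groups, and COLEC12, a scavenger receptor gene, lay at 0.65. For DACH1, SALL1, POU3F3 and NKX2-5 the 12 wild-type and vector libraries are all at the floor. Their distances are set by the 4 T164A values and by any library in which the other gene passes the floor. NR2F1, with a vector mean of 2.12 ± 0.56, lies close to it. Within a distance of 0.50 there were 21, 24, 32 and 44 candidates for DACH1, SALL1, POU3F3 and NKX2-5. The 3 named for each are thus a few of many with such levels. BEND4 itself is above the floor in 10 libraries, and the distances are therefore not compared between BEND4 and the other 4 genes. They describe likeness of level in these libraries, and the libraries of a group share their cells.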

How the data were processed

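Per the labels' protocols, mRNA was enriched by its poly-A tail and made into TruSeq libraries. The GRCh37 build and 4 tools (DESeq, Cufflinks 2.0.2, TopHat2 2.0.4 and CASAVA 1.8.2) are listed in the submitters' processing notes, with no roles. The values, in a deposited table of 21594 rows, are on a log2 scale that no source used here explains. High levels lie on equal steps (100% within 0.05 of a step above 11.5, after an offset of 1.89), as scaled read counts do. Between 10 and 10.5 only 8.29% to 11.38% of values do, so read counts could not be recovered for a count test. The steps gave depth and, extrapolated down from high levels, the floor of 3 reads (2.30), which covers counting error only. Many low values, such as -0.93 for DACH1 in vector replicate 1, lie under the offset on the linear scale. The step relation therefore does not hold there, and the floor is a nominal line. Of symbols on several rows (304), the row with the highest mean was kept, leaving 20166.

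All 16 libraries entered 1 limma fit (limma 3.58.1, R 4.3.3, variance trend, 13 residual degrees of freedom), two-sided, with Benjamini-Hochberg adjustment and a threshold of 0.05. Within groups, no pair of libraries agreed within sampling noise (chi-square per degree of freedom 4.36 to 153 over 540 genes), and the libraries formed 2 close sets in T164A, 2 in wild type and 3 in vector. Libraries in a set may share a culture, so p-values may be too small. The labels give no batch, and one that follows the groups cannot be told apart from them.

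The 5 genes, the lists and the tests were chosen with earlier results of these data known. Named genes are the 5 themselves, up to 4 per list with the smallest p among those called in T164A against vector, every called paralogue, and the 3 nearest in pattern. Marker genes that define a cell type, and genes marked as chosen later, are further exceptions. The level of the over-expressed gene and some other genes are not reported here. The results were recomputed with quantile normalization, without genes below the floor, fitting only the compared groups, no variance trend, with the mean over rows, a minimum fold of 1.2 or 2, Pearson likeness, and leaving out each library. Averaging close libraries was added after seeing the data.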

Additional observations from a re-analysis of the deposited data

Results flagged for a closer look

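Among the T164A libraries, the DACH1 value of replicate 94 (9.62) lay further below the other 3 than the Dixon limit for 4 values allows, although the whole range of the group was 0.13. The POU3F3 value of replicate 93 (9.252) lay above the other 3 in the same way, within a range of 0.16. Replicate 93 is the library that stands apart from its group. Chance flags about 1 in 20 groups, and 15 groups of values were examined. Both genes were below the floor in every wild-type and vector library.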

How the results depend on the processing

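No paired analysis was possible because the groups share no replicate numbers. BEND4 stayed higher in wild type than in vector under all 19 alternatives (fitted difference 8.08 to 8.67, limma adjusted p 1.06e-17 to 7.86e-10). Low vector values were part of how BEND4 was chosen, and every alternative reuses them. The range therefore shows dependence on the settings only and is no independent support. The other 4 genes, below the floor in both groups, passed the test under none of theirs (limma adjusted p at least 0.0533). Nothing is read from this, because nothing was detected and low vector values were part of how the genes were chosen. Leaving out each library in turn gave -0.036 to 0.47 for DACH1 and -0.40 to 0.19 for POU3F3 between groups that both lie below the floor. The same procedure gave -1.04 to -0.45 for SALL1 and 0.36 to 1.07 for NKX2-5, which were also below the floor in both groups. Quantile normalization moved the median of all genes in T164A against vector by -0.21 on the log2 scale (from 0.11 to -0.10), and in T164A against wild type by -0.12. It lowered the T164A means to 9.61 for DACH1, 9.40 for SALL1 and 8.99 for POU3F3, called 1 paralogue lower (POU3F1) instead of 0, and turned SALL4 to -0.010. The homeobox genes were then 72 higher and 20 lower, against 83 and 14. With the original scaling, 7 were lower by at least 2-fold. For wild type against vector, 4244 genes were higher and 4939 lower. Averaging close libraries gave 2274 and 1547, and a minimum fold of 1.2 gave 2513 and 1578. Leaving out libraries gave 4051 to 4351 and 4595 to 5147. The nearest genes depended on the measure: Pearson correlation shared 1, 0, 0, 1 and 2 of the 3 for DACH1, SALL1, POU3F3, NKX2-5 and BEND4. The cause of these shifts was not tested beyond the settings' own construction. Depth limits statements on levels below the floor, where a gene is only not detectable.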
